A study of Homo sapiens with 6 samples.

Results

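The genes described here are 36 human genes of S phase and DNA replication, chosen by symbol, and all 36 were found among the 28395 Entrez gene IDs of the counts table. They were followed in TC28a2, a human chondrocyte cell line that as background was immortalised with SV40 large T antigen, a viral protein that binds the RB family. The cells had been transfected with a control vector (3 libraries) or with a vector that overexpresses FAP, the membrane serine protease known as fibroblast activation protein (3 libraries). RNA was taken 48 hours after transfection and read by DRUG-seq, in which many samples are barcoded and sequenced together at low cost. Gene counts per library ran from 5736056 to 13839743. All 6 libraries come from 1 cell line, and nothing in the labels tells separate cultures from repeat preparations, so the p-values may rest on technical spread alone. In RNA from whole cultures, fewer cells in S phase and less replication gene RNA per cell cannot be told apart.

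Before S phase, the origin recognition complex, CDC6 and CDT1 load the ring-shaped MCM helicase, made of MCM2 to MCM7, onto DNA, and geminin (GMNN) blocks a second loading. CDC45 and the GINS complex then turn the loaded ring into a moving helicase, and polymerases, the clamp PCNA and its loader follow it. Many of these genes are transcribed late in G1 by E2F factors once RB is released from them, and E2F7 and E2F8 later repress the same targets. Large T antigen holds RB away from E2F.

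The promoters were searched for the letters of an E2F-type motif. They are shown for 4 genes that lay on different sides of the comparison: E2F1 and RFC2 had lower values in FAP libraries, MCM6 had higher values, and MCM7 had nearly equal values. Each is the 250 bases before a RefSeq transcription start (GRCh38.p14), 5′ to 3′ on the gene's own strand. Capitals mark matches to an E2F-type motif.
E2F1 (chr20:33686386-33686635, minus strand): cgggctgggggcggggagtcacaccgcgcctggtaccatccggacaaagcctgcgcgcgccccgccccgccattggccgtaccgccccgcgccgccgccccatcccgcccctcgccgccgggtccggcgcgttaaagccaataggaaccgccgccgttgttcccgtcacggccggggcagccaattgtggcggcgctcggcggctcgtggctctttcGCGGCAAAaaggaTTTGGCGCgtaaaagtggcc
MCM6 (chr2:135876444-135876693, minus strand): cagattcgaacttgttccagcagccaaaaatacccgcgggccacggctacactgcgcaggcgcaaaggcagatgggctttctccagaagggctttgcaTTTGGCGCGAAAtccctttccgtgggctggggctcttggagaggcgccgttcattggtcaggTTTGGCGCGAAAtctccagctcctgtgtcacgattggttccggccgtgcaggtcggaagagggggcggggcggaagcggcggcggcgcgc
MCM7 (chr7:100101398-100101647, minus strand): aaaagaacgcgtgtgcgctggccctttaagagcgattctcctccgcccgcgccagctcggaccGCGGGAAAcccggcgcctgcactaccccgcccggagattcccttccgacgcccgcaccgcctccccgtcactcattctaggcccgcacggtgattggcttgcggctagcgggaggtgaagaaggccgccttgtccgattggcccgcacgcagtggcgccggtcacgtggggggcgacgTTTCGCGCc
RFC2 (chr7:74254400-74254649, minus strand): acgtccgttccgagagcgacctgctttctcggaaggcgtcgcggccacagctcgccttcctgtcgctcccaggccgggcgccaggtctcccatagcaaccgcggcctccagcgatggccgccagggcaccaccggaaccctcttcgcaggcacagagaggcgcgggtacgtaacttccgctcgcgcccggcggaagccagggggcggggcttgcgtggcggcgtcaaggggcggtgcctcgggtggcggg

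The motif was searched as TTTCCCGC, TTTCGCGC, TTTGCCGC or TTTGGCGC on both strands, and matches of the forms can overlap. In MCM6 4 matches overlap in pairs at 2 places, the nearest beginning 86 bases before the start. In E2F1 2 matches begin 33 and 20 bases before the start, and MCM7 has its 2 matches 187 and 9 bases before the start shown. No match was present in this window of RFC2. RefSeq promoters were found for 30 of the 36 genes, and 14 of these 30 (46.7%) held the motif before at least 1 start. The share was 3.40% of the 27305 genes of the promoter table and 5.74% of the 10531 of them that were tested here. The 14 were CDT1, DTL, E2F1, GINS2, GMNN, HELLS, MCM3, MCM6, MCM7, PCNA, POLA1, TYMS, UHRF1 and UNG. Among 37 genes of a G2 and M phase list, 3 (8.11%) held it. The CHR-type motif of later cell cycle genes was searched as TTTGAA or TTCGAA on both strands. It was held by 4 of the 30 replication genes (13.3%) and 22 of the 37 G2 and M phase genes (59.5%). The shares were 17.2% of all genes of the promoter table and 13.5% of those of them tested here. A match is a description of the letters and not evidence that a factor binds there. Lack of a match means only that these exact letters were absent from the window, and not that no factor binds there. DSCC1, E2F8, MCM4, MCM5, RPA2 and WDR76 were not in the promoter table.

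Every library matched its label at FAP. FAP was at 0, 1.20 and 0.396 CPM (read counts divided by library size after TMM scaling, which aligns library compositions) in control replicates 1 to 3 and at 222.8, 224.6 and 351 CPM in the FAP libraries. FAP replicate 3 stood apart from the other FAP libraries, with a chi-square per degree of freedom of 17.5 and 16.7 against 6.06 between those, so several results are also given without it. Defining cartilage genes were nearly absent, as 13 of 15 chondrocyte markers, aggrecan and type II collagen among them, had at most 15 counts in any library. Of the 15, SOX9 alone was tested, and the summed marker level was 27.2 to 36.4 CPM in controls and 35.2 to 45.7 CPM in FAP libraries. Of 20 markers of other cell types 9 had at most 15 counts in any library, CDH5 was at 0 in all 6, and the summed level, to which KRT18, COL1A1 and KRT8 gave most (means of 968.0, 625.8 and 467.7 CPM), was 1918 to 2360 CPM in controls and 2298 to 2402 CPM in FAP libraries. The part of these markers in the results below was not tested.

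None of the replication genes was called as changed. Of the 36, 35 passed the low-count filter, and no gene reached an adjusted p under 0.05 (edgeR's quasi-likelihood test with Benjamini-Hochberg adjustment over 13373 genes, smallest adjusted p = 0.428 for RFC2), where 0.224% of all genes tested were called. At an unadjusted p under 0.05 there were 2 of 35 (5.71%), RFC2 and E2F1, against 9.91% of all genes, and DESeq2 and limma-voom also called none. Log2 fold changes (FAP minus control) ran from -0.24 to 0.39, a 0.846-fold to 1.31-fold level, and 20 of 35 were under 0.1 in size. There were 15 positive and 20 negative values with a median of -0.01. Over all tested genes 50.7% were positive and the median was 0.003. With library totals in place of TMM, which moved the median of all genes to 0.06, 22 of the 35 were positive. The summed level of the 36 genes was 5084, 5153 and 4721 CPM in the controls and 4706, 4884 and 4921 CPM in the FAP libraries, so the groups overlapped.

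How far these values bound a change depends on the spread between libraries, which may be technical alone. The 95% interval of the log2 fold change lay wholly inside a 1.5-fold change in either direction for 34 of 35 genes, E2F8 being the exception, and inside 1.25-fold for 17. Over all tested genes, many of them at lower counts, 59.2% of intervals lay inside 1.5-fold and 18.0% inside 1.25-fold. Tested members had between 53 and 6996 counts in each library, and standard errors of 0.10 to 0.20 with a median of 0.11. The median coefficient of variation between replicates was 6.48% in the controls and 8.29% in the FAP libraries, the FAP value being the higher for 18 of 35 genes.

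**Figure D1:**
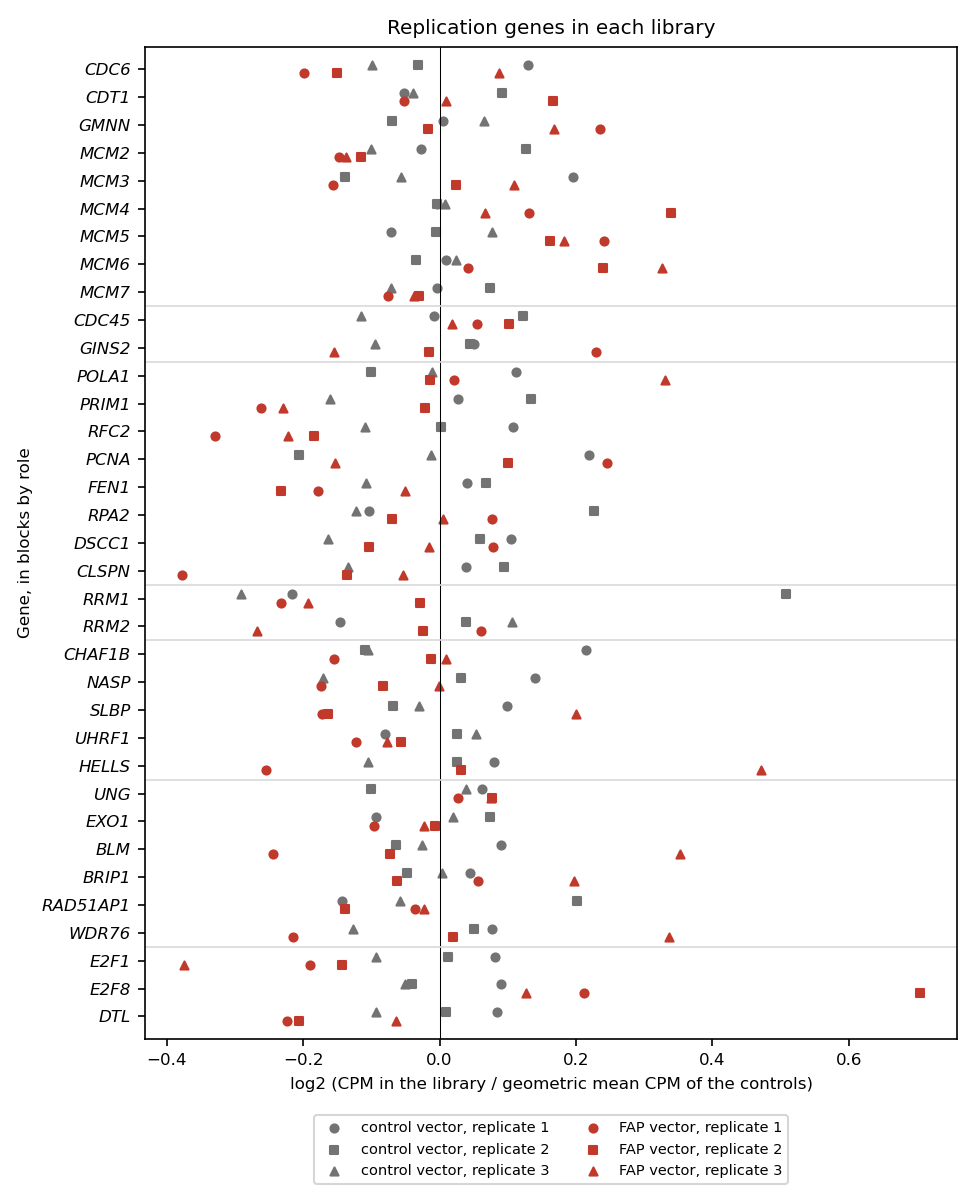
Level of each tested replication gene in each of the 6 libraries, as log2 of its CPM over the geometric mean of the 3 controls, in blocks by role (licensing, helicase activation, fork, nucleotide supply, chromatin, repair, control). Grey points are control and red points FAP libraries, with shape giving the replicate; most rows overlap, and MCM4, MCM5, MCM6 and E2F8 have all red points to the right of the grey while RFC2, E2F1 and MCM2 have all to the left.

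The FAP libraries did not overlap the controls in 7 of 35 genes (20%), close to the 16.0% of all tested genes so separated. They lay above in MCM4, MCM5, MCM6 and E2F8 (7.96% of all genes) and below in MCM2, RFC2 and E2F1 (7.99% of all genes). With library totals as the scale, MCM6 and MCM2 overlapped between groups and the other 5 did not. Without FAP replicate 3, 13 of 35 (37.1%) were separated, against 30.3% of all genes, 4 above and 9 below. In that fit the members' median was -0.06 with 12 positive values, and none was called although 248 of all genes were. Leaving out control replicate 3 also gave 13 separated, against 28.7% of all genes.

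Of the 9 origin licensing genes 4 separated (16.0% of all genes tested), 3 with higher (7.96%) and 1 with lower values (7.99%) in FAP libraries, and all 4 are helicase subunits. MCM6 (Entrez 4175; chromosome 2, 135839626 to 135876443), a helicase subunit, was at 80.6, 78.1 and 81.4 CPM in the controls and at 82.3, 94.4 and 100.3 CPM in the FAP libraries. The controls were tightly grouped and every FAP library was above them, FAP replicate 1 by little. The log2 fold change was 0.21 (SE 0.10, 95% interval -0.003 to 0.43, adjusted p = 0.51), and 0.15 without FAP replicate 3. MCM5 (Entrez 4174; chromosome 22, 35400140 to 35455031) was at 67.6, 70.8 and 74.9 CPM in the controls and 83.9, 79.5 and 80.6 CPM with FAP (a log2 fold change of 0.19 with an SE of 0.10, adjusted p = 0.548). MCM4 (Entrez 4173; chromosome 8, 47960941 to 47978160) was at 202.0, 202.1 and 203.8 CPM in the controls and 222.0, 256.5 and 212.2 CPM in FAP libraries (0.18, SE 0.10, adjusted p = 0.55), and the log2 fold change was 0.098 without FAP replicate 2. For these 3 subunits the FAP libraries were the higher ones in every pairing with a control, by amounts that did not pass the test.

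The other 3 subunits had log2 fold changes below 0. MCM2 (Entrez 4171; chromosome 3, 127598411 to 127622436) was at 165.8, 184.5 and 157.6 CPM in the controls and 152.6, 156.1 and 153.6 CPM in FAP libraries. The FAP libraries agreed closely and lay just under the lowest control (log2 fold change -0.14, SE 0.10, adjusted p = 0.672, and -0.063 without control replicate 2). MCM3 was at 240.9, 191.0 and 202.2 CPM in controls and 188.8, 213.8 and 226.9 CPM in FAP libraries, overlapping throughout (-0.01, 95% interval -0.23 to 0.22). MCM7 was at 503.2, 531.1 and 480.3 CPM in controls and 478.7, 493.8 and 491.5 CPM in FAP libraries (-0.05, 95% interval -0.25 to 0.15). Count ratios within a library do not depend on scaling. The MCM6 to MCM2 ratio was 0.486, 0.423 and 0.516 in the controls and 0.540, 0.605 and 0.653 in the FAP libraries, so these groups did not overlap. The MCM5 to MCM2 ratio was 0.407, 0.384 and 0.475 against 0.550, 0.509 and 0.524. MCM4 to MCM2 gave 1.22, 1.095 and 1.29 against 1.46, 1.64 and 1.38, and MCM7 to MCM2 gave 3.03, 2.88 and 3.05 against 3.14, 3.16 and 3.20, also without overlap. MCM3 to MCM2 overlapped, at 1.45, 1.03 and 1.28 against 1.24, 1.37 and 1.48. All 5 ratios share MCM2, whose FAP libraries were all below the controls. For MCM4, MCM5 and MCM6 the FAP libraries were all above the controls. Their ratios to MCM2 therefore had to separate and add nothing to the separate values. These pairs were chosen after the values were seen and are given without a test.

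**Figure D2:**
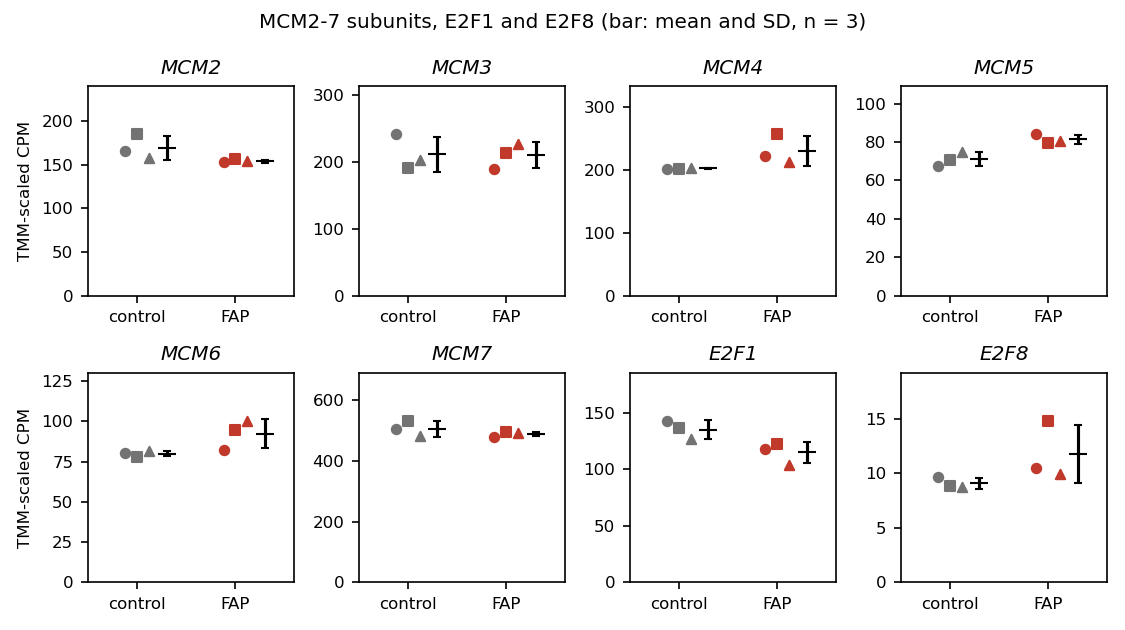
TMM-scaled CPM of the 6 MCM helicase subunits and of E2F1 and E2F8 in control (grey) and FAP (red) libraries, with shapes for replicates 1 (circle), 2 (square) and 3 (triangle) and a bar for the mean ± SD (n = 3). MCM4, MCM5 and MCM6 sit slightly higher in FAP libraries, MCM2 and E2F1 slightly lower, and the E2F8 mean rests on 14.8 CPM in FAP replicate 2.

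The loading factors and their inhibitor overlapped between groups. CDC6, the ATPase that brings in the helicase, was at 116.2, 103.9 and 99.2 CPM in controls and 92.6, 95.6 and 112.8 CPM with FAP (log2 fold change -0.08, SE 0.11). CDT1, its partner, was at 132.1, 145.8 and 133.2 CPM against 132.0, 153.7 and 137.8 CPM (0.04, SE 0.10). GMNN was at 124.4, 118.2 and 129.7 CPM against 146.0, 122.5 and 139.3 CPM (0.13, SE 0.10). FAP replicates 1 and 3 were above all controls for GMNN while replicate 2 fell among them. The count ratio of CDT1 to GMNN, an activator against its inhibitor, was 1.11 ± 0.111 in controls and 1.05 ± 0.183 in FAP libraries (mean ± SD, n = 3). CDC45 and GINS2, the helicase activators, had log2 fold changes of 0.06 and 0.02. MCM7 shares 604 bases with AP4M1 (6.61 CPM) and UHRF1 shares 13741 bases with ARRDC5 (0.258 CPM), and reads there cannot be told apart if strand was not used.

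At the fork, 6 of 8 genes had negative values, with a median of -0.08, and 4 of 8 had them with library totals as the scale. Leaving out control replicate 3 moved the median to -0.15, and leaving out FAP replicate 2 moved it to -0.04. RFC2 (Entrez 5982; chromosome 7, 74231502 to 74254399), a subunit of the clamp loader, was at 125.5, 116.6 and 107.9 CPM in the controls and at 92.7, 102.5 and 99.8 CPM in FAP libraries. All FAP libraries were below the lowest control. Its log2 fold change was -0.24 (SE 0.10, 95% interval -0.45 to -0.03, adjusted p = 0.428). CLSPN, claspin, which relays the checkpoint signal at stalled forks, was at 371.7, 386.3 and 329.5 CPM against 278.5, 329.2 and 348.5 CPM (-0.18, SE 0.11, adjusted p = 0.584, and -0.09 without FAP replicate 1). FEN1, the flap nuclease of Okazaki fragment maturation, was at 229.8, 234.3 and 207.3 CPM against 197.6, 190.3 and 215.7 CPM (-0.15, SE 0.10, adjusted p = 0.633). In both of these genes 1 FAP library, replicate 3, lay above the lowest control. PCNA, the sliding clamp itself, was at 333.2, 248.2 and 283.7 CPM in controls and 339.3, 307.0 and 257.5 CPM in FAP libraries, with wide spread in both groups (0.06, 95% interval -0.18 to 0.31). The primase subunit PRIM1 was at -0.16, the polymerase alpha catalytic subunit POLA1 at 0.13, the cohesion-linked loader subunit DSCC1 at -0.01 and the single-strand binding subunit RPA2 at -0.01.

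Nucleotide supply gave 1 gene that a single library decided and 1 that was barely counted. RRM1, the large subunit of ribonucleotide reductase, was at 249.7, 412.5 and 237.0 CPM in controls and 246.9, 284.2 and 253.8 CPM in FAP libraries. Control replicate 2 was far above the other 5 libraries, and the log2 fold change of -0.20 (SE 0.15) became 0.11 without it. RRM2, the small subunit, was at -0.08 (SE 0.11). TYMS, thymidylate synthase (Entrez 7298; chromosome 18, 657653 to 673578), had 5, 3 and 7 counts in the controls and 3, 16 and 16 in the FAP libraries, and did not pass the low-count filter. In the RefSeq annotation its gene overlaps ENOSF1 over 10593 bases and TYMSOS over 639 bases, and these had mean levels of 5.08 and 3.41 CPM. How reads in such overlaps were counted is not given in the sources used here. Whether the TYMS counts reflect the level of its RNA, and the part of the overlap in them, was not tested.

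The groups overlapped in every chromatin and repair gene, where only 16.0% of all tested genes were without overlap. Among chromatin genes, UHRF1, which guides maintenance methylation, was at -0.09, the histone chaperone NASP at -0.09, the assembly factor subunit CHAF1B at -0.04 and SLBP, which binds histone mRNA, at -0.03. HELLS, a chromatin remodeller, had 0.12 (SE 0.13) from 134.8, 129.9 and 118.6 CPM in controls and 106.9, 130.4 and 176.8 CPM in FAP libraries. Its FAP libraries thus included both the lowest and the highest value of the 6, and the log2 fold change was -0.09 without FAP replicate 3. Among repair genes the uracil glycosylase UNG, the helicases BLM and BRIP1, and WDR76 had 0.06, 0.05, 0.07 and 0.08, and the nuclease EXO1 and the recombination factor RAD51AP1 had -0.04 and -0.08. The median of these 6 repair genes was 0.06, and without FAP replicate 3 it was -0.07 with 1 of 6 positive. BLM and WDR76 showed the order of HELLS, with FAP replicate 1 lowest (23.6 and 45.6 CPM) and FAP replicate 3 highest (35.7 and 66.9 CPM). FAP replicate 1 was the lowest library in 17 of 35 members, while the highest was control replicate 2 in 10 and FAP replicate 3 in 7. The same counts were not made over all tested genes, so they cannot be read as a trait of these members. The median log2 ratio of the members to the control mean was -0.10, -0.02 and 0.01 in FAP replicates 1 to 3 and 0.04, 0.03 and -0.07 in the controls.

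Among the controlling genes, the activator E2F1 and the repressor E2F8 lay on opposite sides. E2F1 (Entrez 1869; chromosome 20, 33675477 to 33686385) was at 142.8, 136.2 and 126.6 CPM in the controls and 118.4, 122.3 and 104.2 CPM in FAP libraries. Every FAP library was below every control (log2 fold change -0.23, SE 0.10, 95% interval -0.44 to -0.02, adjusted p = 0.448). The E2F1 value was -0.16 without FAP replicate 3. E2F8 (Entrez 79733; chromosome 11, 19224063 to 19241655) was at 9.68, 8.85 and 8.79 CPM in controls and 10.5, 14.8 and 9.93 CPM in FAP libraries. FAP replicate 2 was far above the others, and the lowest FAP library was only just above the highest control (0.39, SE 0.20, 95% interval -0.03 to 0.81, adjusted p = 0.54). Without FAP replicate 2 the log2 fold change was 0.17. The count ratio of E2F1 to E2F8 was 14.8, 15.4 and 14.4 in controls and 11.2, 8.25 and 10.5 in FAP libraries, with no overlap. Since E2F1 was below and E2F8 above all controls in every FAP library, their ratio had to separate and adds nothing to the separate values. This ratio was chosen after the values were seen and is given without a test. DTL, the adaptor that marks CDT1 for destruction in S phase, was at -0.16 (SE 0.11), and it spans the ribosomal pseudogene RPL21P28, which had a mean of 743.6 CPM.

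**Figure D3:**
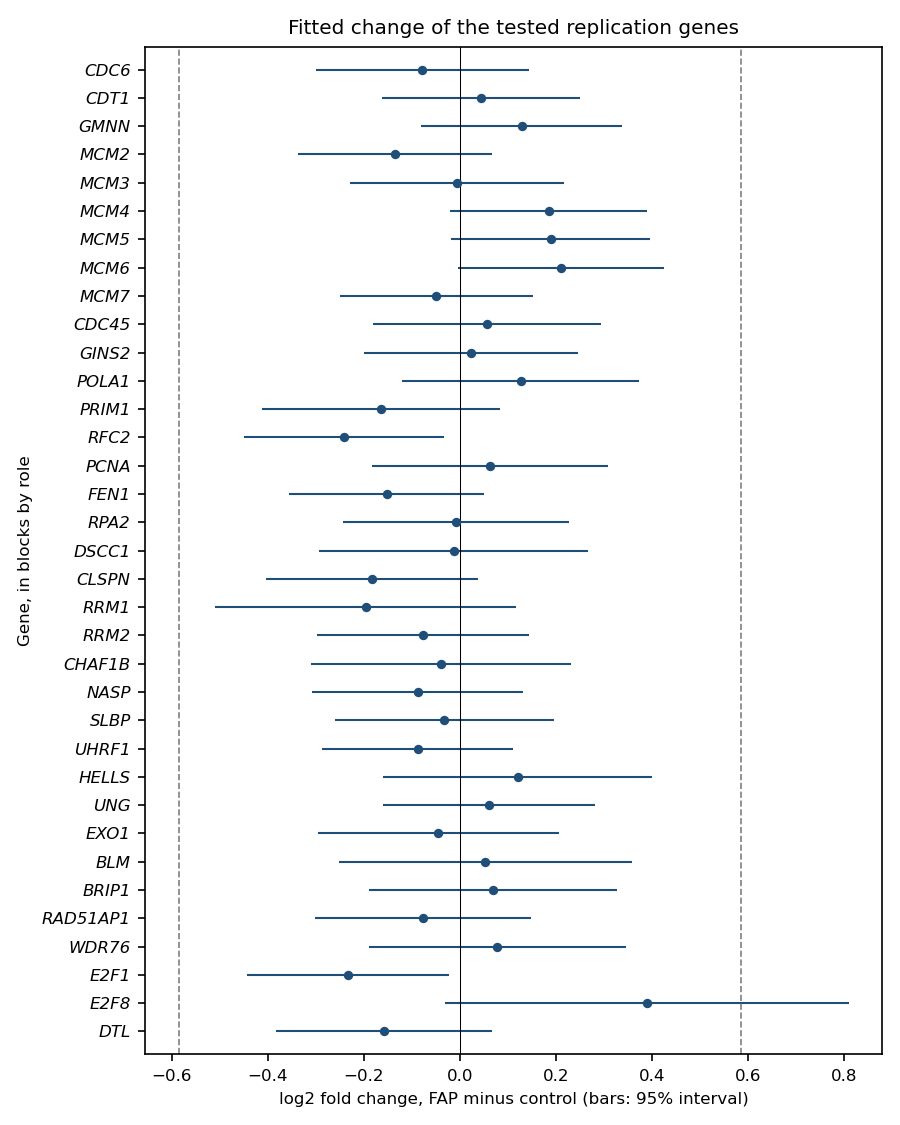
Fitted log2 fold change (FAP minus control) of the 35 tested replication genes with 95% intervals, in blocks by role; dashed lines mark a 1.5-fold change in each direction. All intervals except that of E2F8 lie between the dashed lines, and 33 of 35 include 0, RFC2 and E2F1 being the others.

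CCNE2 was the exception in the wider pathway. This gene encodes cyclin E2, which with CDK2 drives entry into S phase, and it was at 95.5, 80.4 and 82.0 CPM in controls and 44.5, 47.1 and 34.3 CPM in FAP libraries. It fell by 1.03 on the log2 scale (SE 0.12, adjusted p = 2.45e-04), and it shares bases with INTS8 and NDUFAF6, at 20.6 and 20.8 CPM. It was the 1 called gene among 105 further genes in 6 lists of licensing and firing, fork, nucleotide, chromatin, E2F with cyclin, and checkpoint genes. These lists were chosen with earlier results of these data known, so the number of called genes in them is a description and not a test. All 105 were tested, none was called higher (0.0972% of all genes) and 1 was called lower (0.127% of all genes). There were 64 positive values, with a median of 0.05, where 50.7% of all tested genes were positive. Other licensing and firing genes were positive in 16 of 18 cases (median 0.12). Their median was 0.06 without control replicate 2, 0.19 without control replicate 3, and 0.09 with 13 of 18 positive without FAP replicate 3. The smallest p belonged to GINS1 (0.31, adjusted p = 0.398) and ORC1 (0.29, adjusted p = 0.556). Of 29 other fork genes 17 were positive, and CHTF18, of an alternative clamp loader, was at -0.40 and ATAD5, of a clamp unloader, at 0.35 (adjusted p = 0.218 and 0.272). DCK and DUT of nucleotide supply were at 0.43 and 0.24, HAT1 and RBBP4 of histone handling at 0.34 and -0.25, and the checkpoint and repair genes ATR and BRCA2 at 0.23 and 0.19. None of these passed the test.

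Genes of G2 and M phase, which act after replication, are set beside the replication genes. Of the 42 genes on that list, all tested, none was called by edgeR's quasi-likelihood test, and 11 had an unadjusted p under 0.05 (9.91% of all genes). Of the 42, 32 had positive values and the median was 0.13, against 15 of 35 and -0.01 for the replication members. Over all tested genes 50.7% were positive. With library totals as the scale, 37 of the 42 and 22 of the 35 were positive. Without FAP replicate 3, 27 of the 42 were positive and the median was 0.08. The FAP libraries were above all controls in 14 of the 42 (7.96% of all genes) and below in 3 (7.99%), and the median log2 ratio to the control mean was 0.06, 0.09 and 0.18 in FAP replicates 1 to 3. TTK, a spindle checkpoint kinase, and KIF23, a kinesin of cytokinesis, were at 0.47 and 0.31 (adjusted p = 0.111 and 0.272). TTK passed the threshold with DESeq2 (adjusted p = 0.0491), with no low-count filter (0.0396) and without FAP replicate 3 (0.0483). The difference between the lists was not tested.

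**Figure D4:**
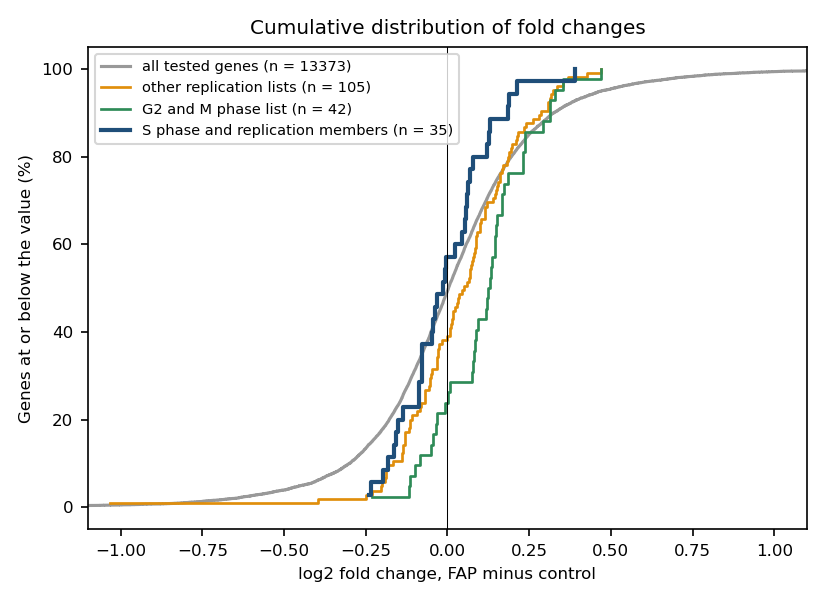
Cumulative percentage of genes by log2 fold change (FAP minus control) for all 13373 tested genes (grey), the 35 tested replication members (blue), 105 further replication genes (orange) and 42 G2 and M phase genes (green). The blue curve crosses the middle close to 0, while the green curve lies to the right with a median of 0.13; the horizontal axis is cut short of the most extreme genes, FAP among them.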

How the data were processed

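Whole-number read counts per gene for 6 libraries were taken as the authors deposited them, without normalization. HISAT2, featureCounts, Subread and GRCh38 are named in the submitters' processing notes. Not given in the sources used here are versions, strand setting, multiple alignments and molecular identifiers. Without identifiers, amplification copies count as reads. Symbols and positions came from NCBI's RefSeq table of GRCh38.p14, which matched 27745 of 28395 IDs, and promoters from RefSeq. Replicates differed by more than sampling noise (chi-square per degree of freedom 5.50 to 17.5).

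edgeR 4.0.16 in R 4.3.3 was run on TMM-scaled libraries after filterByExpr (by group, at least 10 counts and 15 in total), with a two-sided quasi-likelihood F test of FAP minus control. The threshold for a call was 0.05 after Benjamini-Hochberg adjustment over 13373 genes. The standard error is the log2 fold change divided by the square root of F, and 95% intervals use the test's degrees of freedom. CPM are TMM-scaled and are not scaled by length. Levels set beside each other across genes, as for the markers, are shares of reads only. The test was tried on simulated data. Alternatives were DESeq2 1.42.0, limma-voom (limma 3.58.1), other scalings and filters, thinned counts, a replicate block and each library left out. Replication members and lists were chosen with earlier results of these data known. Named with per-library values were the 8 members with the smallest p, MCM2 to MCM7, PCNA, CDC6, CDT1, GMNN, E2F1, E2F8 and CCNE2. Of each further list the called genes or the 2 with the smallest p were named, by log2 fold change. RRM1, HELLS and TYMS were added after their values were seen. Figures used matplotlib 3.10.9.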

Additional observations from a re-analysis of the deposited data

How the results depend on the processing

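No replication member was called under any of the 14 alternatives, and the members' median of -0.0131 became -0.0628 to 0.0261 with a library left out and 0.0421 with library totals, where the median of all genes moved to 0.06. The number of all genes called was 30 and became 19 with library totals, 82 with DESeq2, 152 with no low-count filter, 16 with thinned counts, and 3 to 248 with a library left out. It was 4, 7 and 3 without control replicates 1, 2 and 3, and 6 and 248 without FAP replicates 2 and 3. With a library left out, 9 to 13 members (25% to 37.1%) had groups on 1 side, against 23.6% to 30.3% of all genes. With library totals the split of called genes was 13 higher and 6 lower, against 13 and 17. With the replicate block 44 genes and no member were called; the block rests on shared numbers only, as same-numbered libraries correlated at -0.01, 0.04 and -0.0009, and not every library correlated best with its own number. The sign changed under at least 1 alternative in 18 members. With library totals the values were MCM3 0.0518, MCM7 0.00729, RPA2 0.0471, DSCC1 0.0421, CHAF1B 0.0158, SLBP 0.0242 and EXO1 0.00910. With thinned counts they were RPA2 0.0693, DSCC1 0.0358 and SLBP 0.0104, and MCM3 was 0.00258 with limma-voom and 0.00117 with at least 10 CPM in 3 libraries. With a library left out the ranges were CDT1 -0.0227 to 0.0970, MCM3 -0.0681 to 0.0947, CDC45 -0.00356 to 0.129, GINS2 -0.0799 to 0.107, PCNA -0.0276 to 0.177, RPA2 -0.0746 to 0.122, DSCC1 -0.0972 to 0.0334, RRM1 -0.342 to 0.112, RRM2 -0.146 to 0.0116, CHAF1B -0.0954 to 0.0614, SLBP -0.166 to 0.0325, HELLS -0.0948 to 0.271, BLM -0.140 to 0.162, BRIP1 -0.00677 to 0.135, RAD51AP1 -0.143 to 0.0367 and WDR76 -0.0780 to 0.192. The cause of these changes was not tested. CCNE2 was called throughout, at -1.14 to -0.90 with a library left out. DCK and HAT1 passed without FAP replicate 3 (0.0286 and 0.0494). TYMS, with 3 to 16 counts in a library, was too thinly counted to be tested.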
